A study of Mus musculus with 2 samples.

Results

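A signalling axis between lymphocytes and dendritic cells (DC) is formed here by 5 genes, the chemokine gene Xcl1 (ENSMUSG00000026573) with its receptor gene Xcr1 (ENSMUSG00000060509), the growth factor gene Flt3l (ENSMUSG00000110206) with its receptor gene Flt3 (ENSMUSG00000042817), and Csf2 (ENSMUSG00000018916), which encodes the growth factor GM-CSF. They were taken by symbol, 5 of the 32589 genes in the count files, and each symbol occurred once. XCL1 is secreted by natural killer (NK) cells and activated CD8 T cells and attracts type 1 conventional DC (cDC1), which alone among DC carry XCR1. FLT3 ligand keeps conventional and plasmacytoid DC in number through FLT3, and in mouse tumours both signals are known to reach cDC1 cells from NK cells. GM-CSF acts on monocytes, macrophages and DC.

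The genes were measured by single-cell RNA sequencing of live leukocytes (CD45+) sorted from MC38 tumours, a mouse colon carcinoma line, at day 19 after inoculation. The BiDT library came from treated tumours and the Ctrl library from control tumours, and in each 5 biological replicates were pooled into 1 library of batch 1. What BiDT stands for is not spelled out in the labels; the title of the series speaks of an anti-TIM3 antibody fused to interferon. With 1 library per group no difference could be tested or checked in replicates, and all intervals, given at 95%, cover counting error only.

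The BiDT library held 31709 filtered cells with a median of 2619 UMIs (unique molecular identifiers, each counting 1 captured transcript), and the Ctrl library 30415 cells with a median of 4172 UMIs. Malat1, a nuclear RNA that runs high in damaged cells, took 0.823% of UMIs in BiDT and 0.410% in Ctrl. Barcodes present in both libraries numbered 713. Cell classes were built from clusters and named "-like" by marker genes, none of which is one of the 5 genes, and a cell-by-cell marker gate was run as an alternative. The 10 NK markers summed to 4498 CPM (UMIs per 1000000 UMIs of the cells considered) in NK-like cells of BiDT and 3846 CPM in those of Ctrl, while macrophage or monocyte-like cells had 112 CPM in BiDT and 22.4 CPM in Ctrl. Not every NK marker went with the sum. In NK-like cells Ncr1 stood at 90.5 CPM in BiDT and 144.8 CPM in Ctrl, and Klrb1c at 147.7 CPM and 196.3 CPM in that order. The 8 cDC1 markers summed to 5180 CPM in cDC1-like cells of BiDT and 3076 CPM in those of Ctrl, while macrophage or monocyte-like cells had 455 CPM in BiDT and 432 CPM in Ctrl. Both marker lists also served to name the clusters, so their high sums in these classes are no independent check of the names. Fewer transcripts per cell and fewer cells of a kind within a class cannot be told apart from class sums.

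The promoters of the ligand genes Xcl1 and Flt3l are shown because the series title links the treatment to interferon and the results turn on these ligands. They are RefSeq windows of GRCm38.p6 on the minus strand, from 250 bases before to 30 bases after the start site, while the count files use GRCm39. Capitals mark the core of an interferon-stimulated response element, the one motif found.
Xcl1, chr1:164935493-164935772: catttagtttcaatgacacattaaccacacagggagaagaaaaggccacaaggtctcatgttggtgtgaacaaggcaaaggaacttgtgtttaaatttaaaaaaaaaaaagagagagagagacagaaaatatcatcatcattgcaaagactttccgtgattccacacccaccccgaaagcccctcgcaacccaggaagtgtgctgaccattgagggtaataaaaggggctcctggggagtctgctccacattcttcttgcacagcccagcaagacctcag
Flt3l, chr7:45136403-45136682: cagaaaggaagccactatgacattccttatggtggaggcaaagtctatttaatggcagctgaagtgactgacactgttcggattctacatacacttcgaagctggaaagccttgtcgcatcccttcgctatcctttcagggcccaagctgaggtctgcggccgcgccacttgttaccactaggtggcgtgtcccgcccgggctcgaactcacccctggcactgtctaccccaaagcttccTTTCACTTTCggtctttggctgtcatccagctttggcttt
The core, GAAA repeated after any 2 bases and searched on both strands, matched once in the Flt3l window, as TTTCACTTTC from base -10 to base -1, and in none of the Xcl1, Csf2, Xcr1 and Flt3 windows. This motif was present in 3.28% of 32541 windows of the same length. The gamma-activated site TTCNNNGAA and the AP-1 site TGANTCA, present in 7.86% and 7.45% of windows, matched in none of the 5. A match is a string of letters and not a measured binding site.

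Over whole libraries, the 3 ligand genes were higher and both receptor genes lower in BiDT. Xcl1 stood at 73.6 CPM in BiDT (8599 UMIs) and 30.7 CPM in Ctrl (5772 UMIs), a log2 ratio of BiDT over Ctrl of 1.26 (1.21 to 1.31). Flt3l stood at 27.3 CPM in BiDT and 10.6 CPM in Ctrl (log2 1.36, 1.28 to 1.45). Csf2 stood at 21.6 CPM in BiDT and 10.7 CPM in Ctrl (log2 1.01, 0.93 to 1.10). Every ligand thus differed in the same direction. Xcr1 was at 2.63 CPM in BiDT and 3.53 CPM in Ctrl (log2 -0.43, -0.62 to -0.23), and Flt3 at 4.82 CPM and 9.51 CPM in the same order (log2 -0.98, -1.12 to -0.84). At a threshold of 1.5 times, 3 of the 5 genes were higher and 1 was lower in BiDT, while 24.6% of the 16853 genes with at least 50 UMIs were higher and 6.6% lower. The trimmed mean of M-values (TMM) moves every log2 ratio of whole libraries by -0.22 and turns the split of all genes from 4140 higher and 1113 lower to 2900 higher and 2259 lower. With each cell thinned to 1000 UMIs, so that cells weigh equally, the log2 ratio of Xcl1 was 0.51, with 51.8 CPM in BiDT and 36.5 CPM in Ctrl.

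The dendritic cells that read these signals made up a smaller share of the BiDT library. Conventional DC-like cells (cDC1-like, cDC2-like and migratory DC-like cells together) were 3.16% of filtered cells in BiDT (1003 cells, 2.97 to 3.36%) and 8.71% in Ctrl (2648 cells, 8.39 to 9.03%), a log2 ratio of -1.46. The cDC1-like share was 0.337% in BiDT (107 cells) and 0.957% in Ctrl (291 cells), a log2 ratio of -1.50, and the cDC2-like share 1.87% in BiDT and 5.71% in Ctrl. Without cluster D9, described below with Xcr1, the cDC1-like share was 0.262% in BiDT and 0.510% in Ctrl (log2 -0.96), and at Leiden resolution 2 it was 0.306% and 0.585% in that order (log2 -0.94). Migratory DC-like cells made up 0.959% in BiDT and 2.04% in Ctrl, and plasmacytoid DC-like cells 0.0599% and 0.201% in that order. NK-like cells were 18.6% of filtered cells in BiDT (5895 cells) and 4.33% in Ctrl (1318 cells), a log2 ratio of 2.10. The cell-by-cell marker gate gave 4.98% in BiDT and 1.87% in Ctrl (log2 1.41). This gate asks for a fixed number of marker UMIs at any depth. NK-like cells had median depths of 2791 UMIs in BiDT and 4107.5 UMIs in Ctrl, and the part of depth in gated values was not tested. Higher ligand levels and a lower DC share therefore stood side by side in the BiDT library, and shares of one library are tied to each other. The library held 28.0 Xcl1 UMIs for each Xcr1 UMI in BiDT and 8.69 in Ctrl, and 5.67 Flt3l UMIs for each Flt3 UMI in BiDT and 1.12 in Ctrl.

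**Figure D1:**
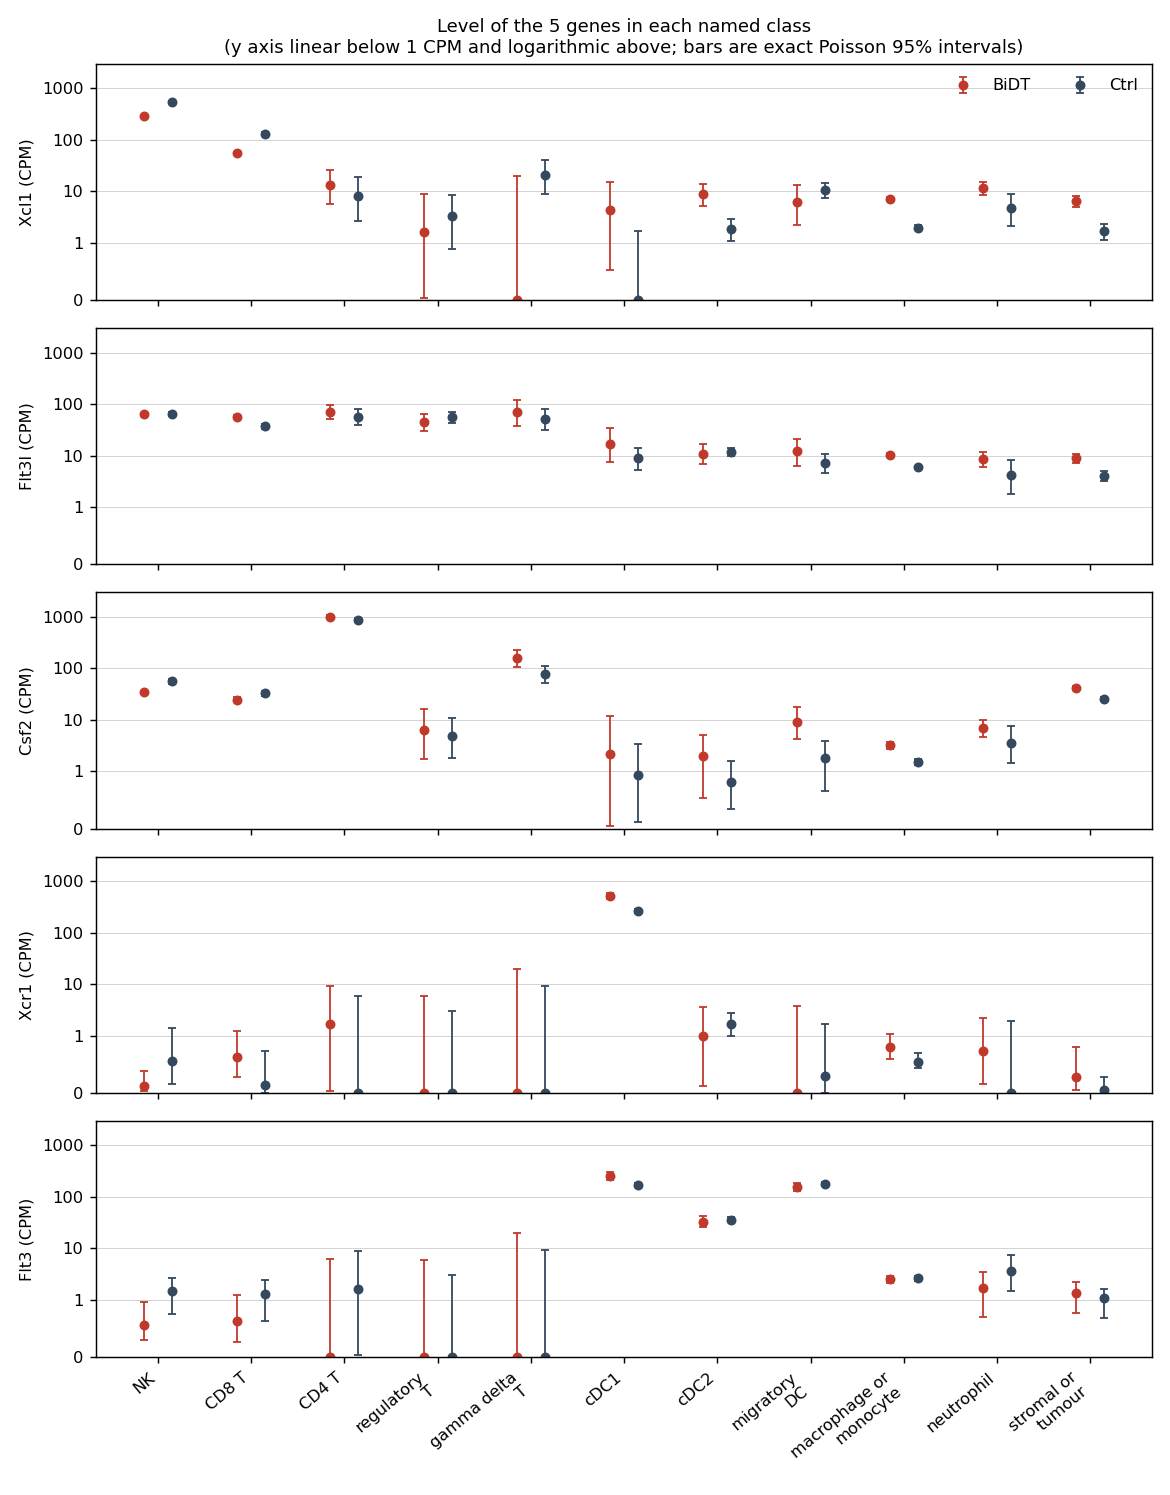
Levels (CPM) of the 5 genes in 11 cell classes of the BiDT (red, left) and Ctrl (dark, right) libraries, with exact Poisson 95% intervals, on an axis that is linear below 1 CPM and logarithmic above. Xcl1 stands highest in NK-like cells, Flt3l in all T and NK classes, Csf2 in CD4 T-like cells, Xcr1 in cDC1-like cells, and Flt3 in cDC1-like and migratory DC-like cells.

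Within NK-like cells Xcl1 was lower in BiDT, opposite to its library level. The class held 292.8 CPM in BiDT (6758 UMIs, 286 to 299.9 CPM) and 539.7 CPM in Ctrl (3909 UMIs, 523 to 557 CPM), a log2 ratio of -0.88 (-0.94 to -0.82). Of all NK-like cells, 13.0% in BiDT and 26.7% in Ctrl had an Xcl1 UMI at 1000 UMIs per cell, and 27.5% in BiDT and 45.8% in Ctrl at full depth. The share in macrophage or monocyte-like cells, which should lack Xcl1, was 0.689% in BiDT and 0.198% in Ctrl when thinned, at median depths of 2578 and 4298 UMIs. Among cells with a UMI, the mean was 1.58 UMIs in BiDT and 1.93 UMIs in Ctrl after thinning. Both the share of positive cells and the UMIs per positive cell were thus lower in BiDT. In NK-like cells Xcl1 was one of the 5.07% of 11713 genes at least 1.5 times lower in BiDT, beside 14.3% at least 1.5 times higher. With TMM 1263 genes were higher and 857 lower, against 1671 and 594 by total counts. The 6 CD8 T markers summed to 279 CPM in BiDT and 305 CPM in Ctrl in these cells, and the 12 macrophage or monocyte markers to 2165 CPM and 1740 CPM in that order, with none at 0; their part in the ratio was not tested.

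The lower Xcl1 level was found in most but not all NK-like clusters. Of 8 clusters, 6 had a lower level in BiDT with an interval below 0, and in the other 2 (L8 and L12) the interval included 0 and Ctrl held 45 and 21 cells. Cluster L2, led by Gzmc and Xcl1, stood at 594.7 CPM in BiDT and 824 CPM in Ctrl. Cluster L7, led by Gzmc, Xcl1 and Car2, stood at 379 CPM in BiDT and 836 CPM in Ctrl, a log2 ratio of -1.14. Cluster L14, led by granzyme genes Gzmg and Gzmf, was the lowest with 37.5 CPM in BiDT and 78.7 CPM in Ctrl. The libraries filled the class differently, since L2 held 12.4% of NK-like cells in BiDT and 36.6% in Ctrl, and L0, at 252 CPM in BiDT and 319.8 CPM in Ctrl, held 21.2% and 11.8% in that order. The unnamed cluster L11, led by Klra1 and Klra6, also carried Xcl1, with 368 CPM in BiDT and 581 CPM in Ctrl. Depth and Malat1 also differed between the libraries, and in cells with at most 1% Malat1 the NK-like ratio was -0.76. The part of these differences in the ratio was not tested further.

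CD8 T-like cells were the second source of Xcl1, again lower in BiDT. Their level was 54.5 CPM in BiDT (687 UMIs) and 130.7 CPM in Ctrl (1002 UMIs), a log2 ratio of -1.26 (-1.40 to -1.12). At 1000 UMIs per cell, 2.42% of CD8 T-like cells in BiDT and 5.91% in Ctrl had an Xcl1 UMI (5.20% and 11.8% in that order at full depth). A single cell of cluster L9 with 257 Xcl1 UMIs held much of the BiDT sum, and without it the BiDT level was 34.2 CPM. The highest Ctrl cell had 89 Xcl1 UMIs, and without it the Ctrl level was 119 CPM. Of 5 clusters with at least 20 cells in each library, 4 had a lower level in BiDT, 2 of them with an interval below 0. L9 was higher with 150 CPM in BiDT, the cell with 257 UMIs included, and 84.5 CPM in Ctrl. Its level without that cell was not computed. Cluster L1, which held 7.87% of CD8 T-like cells in BiDT and 54.8% in Ctrl, stood at 89.7 CPM in BiDT and 181 CPM in Ctrl. In CD8 T-like cells 4.4% of 10847 genes were at least 1.5 times lower and 10.3% higher. Every other named class had at most 20.4 CPM of Xcl1 in either library, and in macrophage or monocyte-like cells it was 7.03 CPM in BiDT and 1.97 CPM in Ctrl. The part of free RNA in such low levels was not tested.

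**Figure D2:**
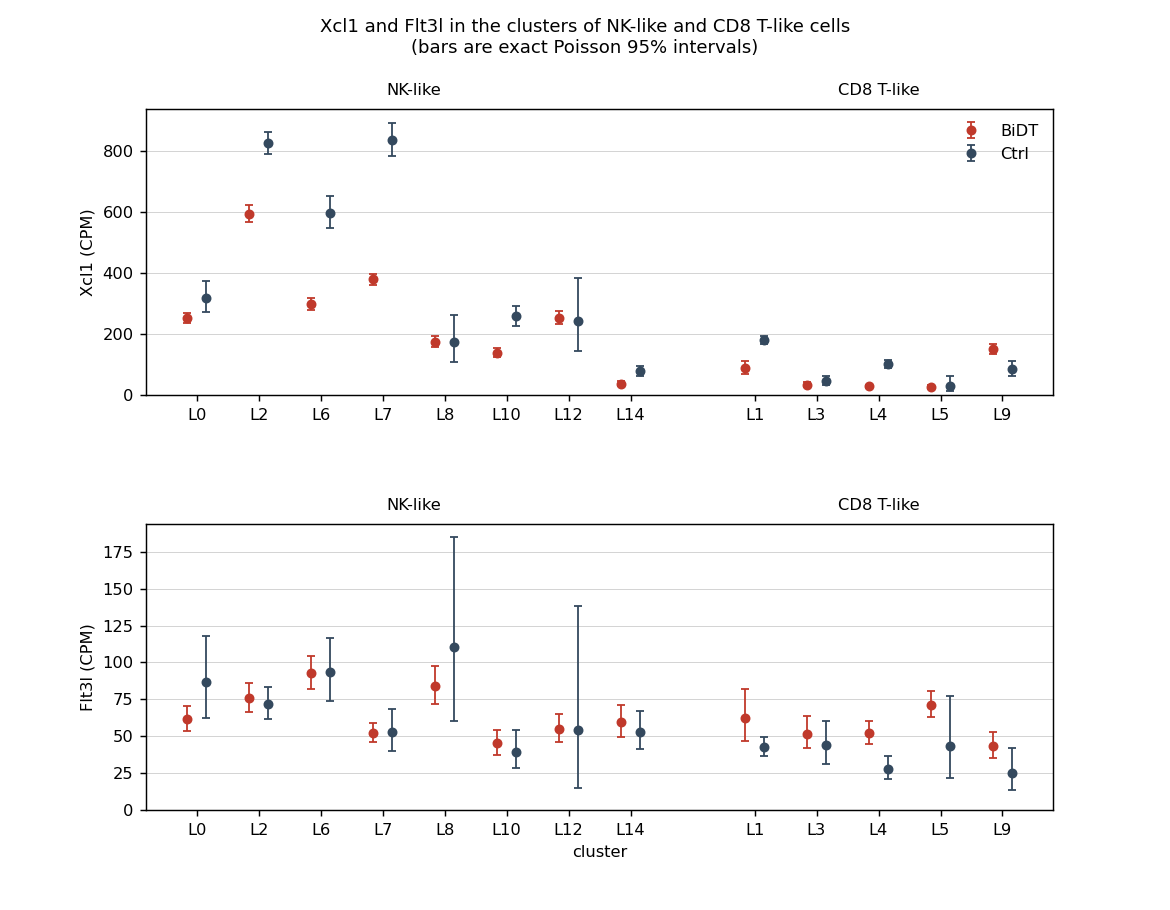
Xcl1 (upper panel) and Flt3l (lower panel) levels in CPM in the NK-like and CD8 T-like clusters with at least 20 cells in each library, BiDT red and left, Ctrl dark and right, with exact Poisson 95% intervals. Xcl1 spans 37.5 to 594.7 CPM over NK-like clusters in BiDT and 78.7 to 836 CPM in Ctrl, whereas over the same clusters Flt3l spans 45.1 to 92.8 CPM in BiDT and 39.6 to 110.5 CPM in Ctrl.

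Flt3l was found in all T and NK classes, and its level in NK-like cells was close in both libraries. NK-like cells had 64.7 CPM in BiDT (1492 UMIs) and 65.3 CPM in Ctrl (473 UMIs), a log2 ratio of -0.01 (-0.16 to 0.14). After thinning, 5.77% of NK-like cells in BiDT and 5.69% in Ctrl had a Flt3l UMI, against 0.991% and 0.607% of macrophage or monocyte-like cells. None of the 8 NK-like clusters had an interval that excluded 0. CD8 T-like cells were higher in BiDT, with 56.5 CPM (712 UMIs) against 37.4 CPM in Ctrl (287 UMIs), a log2 ratio of 0.59 (0.39 to 0.80), and all 5 clusters compared were higher, 2 of them with an interval above 0. The other T classes lay between 45.4 and 70.5 CPM in BiDT and between 50.9 and 57.0 CPM in Ctrl, with intervals of their ratios that include 0. By level, CD4 T-like, gamma delta T-like, NK-like, CD8 T-like and regulatory T-like cells came in that order in BiDT, and the intervals of neighbours overlap except between NK-like and CD8 T-like cells. In Ctrl, too, the intervals of NK-like and CD8 T-like cells do not overlap.

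Outside T and NK cells, Flt3l was at or below 17.2 CPM in named classes with at least 50 cells in each library. Macrophage or monocyte-like cells had 10.3 CPM in BiDT and 5.97 CPM in Ctrl, and stromal or tumour-like cells 8.98 CPM and 4.08 CPM in that order. These classes had like low levels within a library, and how much of them is free RNA was not tested. Being numerous, macrophage or monocyte-like cells still held 18.7% of all Flt3l UMIs in BiDT and 38.8% in Ctrl. A readthrough gene, Gm45713, spans Flt3l and the neighbouring Rpl13a on the same strand, and had 63 UMIs in BiDT and 42 in Ctrl, so that reads shared by both could not be assigned with certainty.

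Csf2 came from few cells of several classes, and the classes differed in direction. CD4 T-like cells, a cluster led by Il13, Il5 and Ccl1, had the highest level of the named classes, with 1015 CPM in BiDT (605 UMIs) and 884 CPM in Ctrl (543 UMIs), a log2 ratio of 0.20 (0.03 to 0.37). After thinning, 17.2% of these cells in BiDT and 16.9% in Ctrl had a Csf2 UMI, and 10 cells held 64.6% of the unthinned UMIs in BiDT and 73.3% in Ctrl. In CD4 T-like cells 9.49% of 3983 genes were at least 1.5 times higher and 8.16% lower. Intervals that count UMIs as independent are too narrow for so uneven a gene. NK-like cells had 34.5 CPM in BiDT and 56.2 CPM in Ctrl (log2 -0.70, -0.88 to -0.53), and the marker gate gave 16.2 CPM and 51.7 CPM in that order (log2 -1.67). Of their 8 clusters 3 were lower in BiDT, 2 with an interval below 0, and 5 higher, 1 with an interval above 0. Among clusters with UMIs in both libraries the ratio ranged from -2.22 in L14 to 0.94 in L7. CD8 T-like cells had 24.9 CPM in BiDT and 32.9 CPM in Ctrl (log2 -0.40), yet none of their 5 compared clusters had an interval below 0 and 2 had one above 0. In L1, for example, Csf2 stood at 66.1 CPM in BiDT and 44.3 CPM in Ctrl. Gamma delta T-like cells had 160 CPM in BiDT and 76.4 CPM in Ctrl, from 30 UMIs in each library. With Leiden resolution 2 the log2 ratio was -0.029 in CD4 T-like and 0.096 in CD8 T-like cells, and with the marker gate it was -0.59 in gamma delta T-like cells.

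Stromal or tumour-like cells, which a CD45 sort should not contain, carried Csf2 as well. Their level was 42.0 CPM in BiDT (459 UMIs) and 26.0 CPM in Ctrl (528 UMIs), a log2 ratio of 0.70 (0.51 to 0.88), among 20.4% of 12548 genes at least 1.5 times higher and 4.61% lower. One cell held 96 of the BiDT UMIs, and without it the BiDT level was 33.4 CPM. The highest Ctrl cell held 61 UMIs, and without it the Ctrl level was 23.0 CPM. Cluster M23, led by Tubb3 and Tm4sf1, stood at 79.7 CPM in BiDT and 38.5 CPM in Ctrl, above M16 with 40.5 CPM and 16.2 CPM in that order. M18, led by collagen genes, stood at 17.0 CPM in BiDT and 16.1 CPM in Ctrl (log2 0.07). M16 held 69.0% of the class in BiDT and 23.3% in Ctrl, M18 21.2% and 46.4% and M23 9.86% and 30.3% in that order. An unnamed cluster of 14 BiDT and 9 Ctrl cells, D16, led by Csf2, Gata3, Il1rl1 and Il5, had 70 Csf2 UMIs in BiDT and 12 in Ctrl, or 2043 CPM and 458 CPM in that order. Macrophage or monocyte-like cells were at 3.20 CPM in BiDT and 1.52 CPM in Ctrl. An antisense gene at Csf2, Gm12223, had 7 UMIs in BiDT and 2 in Ctrl.

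The library difference of each gene was split into a part from class shares and a part from levels within classes, each at the mean of both libraries, with shares counted as shares of UMIs. For Xcl1 the difference of 42.9 CPM between BiDT and Ctrl was made of 72.3 CPM from shares and -29.4 CPM from levels. With the class shares of BiDT and the levels of Ctrl, the library would have had 125.6 CPM. NK-like cells alone contributed 66.2 CPM through their share and -29.1 CPM through their level, and held 78.6% of all Xcl1 UMIs in BiDT and 67.7% in Ctrl. For Flt3l the difference of 16.7 CPM was made of 11.7 CPM from shares and 5.07 CPM from levels, and NK-like cells held 46.7% of its UMIs in BiDT and 23.7% in Ctrl. Of the part from levels, macrophage or monocyte-like cells gave 2.56 CPM and stromal or tumour-like cells 0.493 CPM. CD8 T-like cells gave 1.415 CPM and NK-like cells -0.0773 CPM. How much of the first 2 is free RNA was not tested. For Csf2 shares gave 10.0 CPM of 10.9 CPM and levels 0.896 CPM, to which classes contributed with opposite signs. Through their levels NK-like cells gave -2.56 CPM and CD8 T-like cells -0.593 CPM. Stromal or tumour-like cells gave 1.62 CPM, macrophage or monocyte-like cells 0.995 CPM and CD4 T-like cells 0.549 CPM. For Flt3 the difference of -4.69 CPM came with -4.79 CPM from shares and 0.0973 CPM from levels. For Xcr1 the parts had opposite signs, -2.99 CPM from shares and 2.09 CPM from levels.

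**Figure D3:**
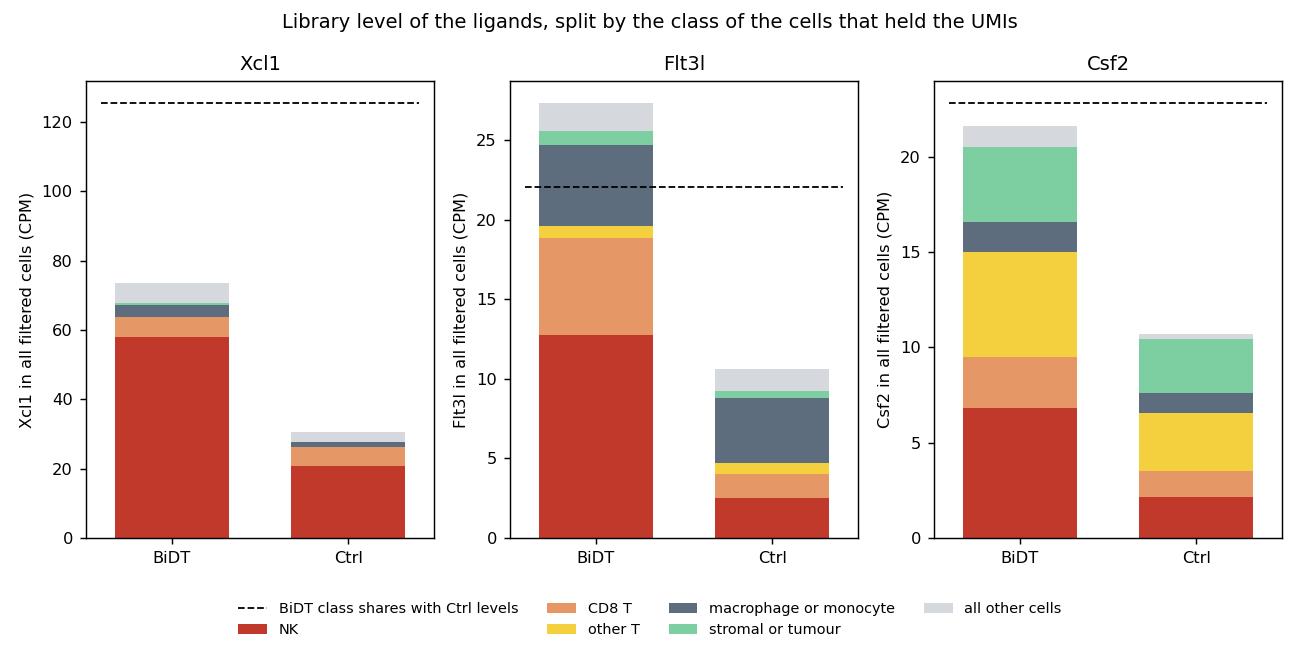
Library level (CPM) of Xcl1, Flt3l and Csf2 in the BiDT (left bar) and Ctrl (right bar) libraries, stacked by the class whose cells held the UMIs; the dashed line is the level with BiDT class shares and Ctrl levels. The line stands at 125.6 CPM for Xcl1, above the 73.6 CPM measured in BiDT, at 22.0 CPM for Flt3l, below 27.3 CPM, and at 22.8 CPM for Csf2, near 21.6 CPM.

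Xcr1, the receptor of Xcl1, had most of its UMIs in cDC1-like cells and stood higher within them in BiDT. The class had 515 CPM in BiDT (240 UMIs) and 265 CPM in Ctrl (569 UMIs), a log2 ratio of 0.96 (0.74 to 1.18), and held 78.2% of all Xcr1 UMIs in BiDT and 85.7% in Ctrl. At 1000 UMIs per cell, 28.0% of cDC1-like cells in BiDT and 15.8% in Ctrl had an Xcr1 UMI, against 0.0665% and 0.0530% of macrophage or monocyte-like cells. At full depth the cDC1-like shares were 55.1% in BiDT and 36.4% in Ctrl, at median depths of 3150 and 5589 UMIs. In cDC1-like cells 12.5% of 6278 genes were at least 1.5 times higher and 16.1% lower. Both clusters of the class were higher in BiDT, D8 with 648 CPM against 429 CPM in Ctrl and D9 with 283 CPM against 163 CPM in Ctrl. D9 held 22.4% of the class in BiDT and 46.7% in Ctrl, and its score for cDC2 markers exceeded that for cDC1 markers.

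Other markers of DC subsets also differed in cDC1-like cells, in both directions. Clec9a, a receptor for dead cells on cDC1 cells, stood at 309 CPM in BiDT and 133 CPM in Ctrl in cDC1-like cells, and Ccr7, the receptor that guides migratory DC, at 8.59 CPM and 271 CPM in that order. The 8 migratory DC markers summed to 77.3 CPM in BiDT, with 2 of them at 0, and to 1876 CPM in Ctrl, with 1 at 0. In D9 of Ctrl this sum was 2743 CPM, of which Ccl17 alone gave 2076 CPM. The 9 cDC2 markers summed to 1531 CPM in BiDT and 2927 CPM in Ctrl, with none at 0. The cDC2 marker Cd209a was instead higher in BiDT, at 142 CPM against 57.2 CPM in Ctrl. Without D9 the Xcr1 log2 ratio was 0.60, and with clusters at Leiden resolution 2 it was 0.29, at 614.7 CPM in BiDT and 504 CPM in Ctrl. The part of these markers in the Xcr1 ratio was not tested.

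Flt3, the receptor of FLT3 ligand, was highest in the DC classes, and its level within conventional DC-like cells was close in both libraries. Conventional DC-like cells had 98.6 CPM in BiDT (342 UMIs) and 86.0 CPM in Ctrl (1321 UMIs), a log2 ratio of 0.20 (0.02 to 0.37), which was -0.27 under the cell-by-cell marker gate. In these cells 12.8% of 10477 genes were at least 1.5 times higher and 6.47% lower, and TMM turned 1343 higher and 678 lower genes to 922 and 1162. By level, plasmacytoid DC-like cells (314 CPM in BiDT, 272 CPM in Ctrl) and cDC1-like cells (259.8 CPM and 169.9 CPM in that order) came first, migratory DC-like cells (157 CPM and 178 CPM) next and cDC2-like cells (33.1 CPM and 36.5 CPM) last. This is the order in BiDT, and in Ctrl migratory DC-like cells stood above cDC1-like cells with overlapping intervals. The intervals of plasmacytoid DC-like and cDC1-like cells overlap in BiDT. In cDC1-like cells the log2 ratio was 0.61 (0.30 to 0.91), but 0.09 without D9. It was -0.14 (-0.54 to 0.24) in cDC2-like and -0.18 (-0.45 to 0.08) in migratory DC-like cells. The libraries filled the cDC2-like class differently. Of its 592 BiDT and 1738 Ctrl cells, D3 held 47 and 433 and D4 held 37 and 328 in that order. The part of subset and cluster make-up in the pooled ratio was not tested. Among cDC2-like clusters only D5, led by Cd209a, had an interval that excluded 0, with 63.2 CPM in BiDT and 141 CPM in Ctrl. In all cDC2-like cells 12.6% of 9431 genes were at least 1.5 times higher and 7.53% lower, and in migratory DC-like cells 16.1% of 7156 genes were higher and 6.57% lower. Macrophage or monocyte-like cells had 2.54 CPM in BiDT and 2.65 CPM in Ctrl.

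**Figure D4:**
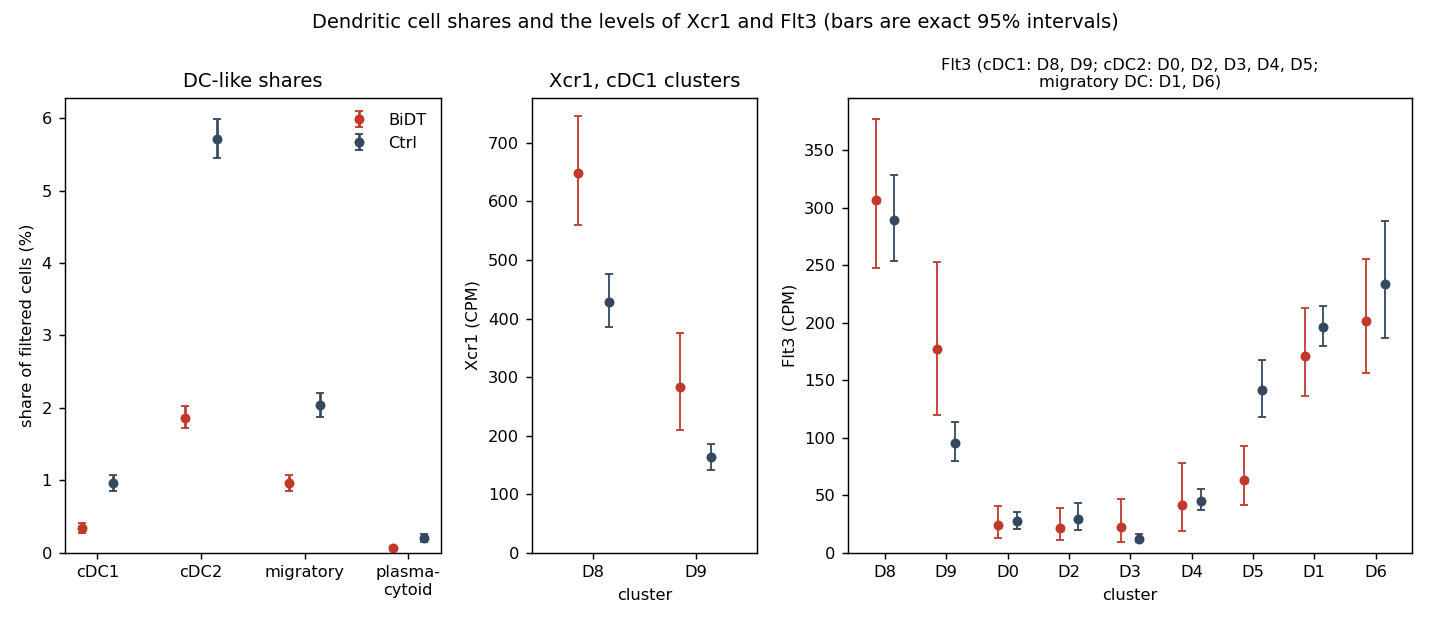
Left, shares of filtered cells (%) of the 4 DC-like classes with exact binomial 95% intervals; middle and right, Xcr1 and Flt3 levels (CPM) by DC-like cluster with exact Poisson 95% intervals, BiDT red and left, Ctrl dark and right. All 4 shares are lower in BiDT, Xcr1 is higher in BiDT in D8 and D9, and Flt3 lies within overlapping intervals in all but D9 and D5.

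Other genes that link lymphocytes and DC were read from 5 lists. Of the chemokines that attract DC and their receptors, in NK-like cells 2 of 6 measured genes were at least 1.5 times higher and 1 lower, where 14.3% of all tested genes of these cells were higher and 5.07% lower. Ccl4 stood at 531 CPM in BiDT and 209 CPM in Ctrl and Ccl3 at 161 CPM and 78.3 CPM in that order, whereas Ccl5 stood at 111 CPM in BiDT and 252 CPM in Ctrl. Ccl3 and Ccl4 of NK-like cells, and Ccl3 of CD8 T-like cells, lay below 10% of the level in another class, and the part of free RNA in them was not tested. CD8 T-like cells differed in the same directions, with Ccl4 at 2476 CPM in BiDT and 1336 CPM in Ctrl, Ccl3 at 826 CPM and 416 CPM, and Ccl5 at 588 CPM and 1249 CPM. In conventional DC-like cells Ccl5 was instead higher, at 490 CPM in BiDT and 285 CPM in Ctrl. The lymphotoxin and RANK pairs had 3 of 5 genes lower in NK-like cells (5.07% of all tested genes), with Tnfsf11, which encodes RANK ligand, at 31.4 CPM in BiDT and 78.7 CPM in Ctrl, and Ltb at 199 CPM and 336.6 CPM. Over all tested genes of NK-like cells the median log2 ratio was 0.10, against -0.70 for this list. Of the growth factor list, 8 genes were measured in NK-like cells, with 1 higher (14.3% of all tested genes) and 4 lower (5.07%). Of these 5 genes only Kit, the receptor of stem cell factor, was above 10% of the level in another class, at 64.2 CPM in BiDT and 106.7 CPM in Ctrl, and the part of free RNA in the other 4 was not tested.

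On the receiving side both chains of the GM-CSF receptor differed by less than 1.5 times in conventional DC-like cells. Csf2ra, the ligand-binding chain, stood at 140.6 CPM in BiDT and 149.8 CPM in Ctrl, and Csf2rb, the signalling chain, at 623 CPM and 782 CPM in that order. Csf2rb2, which encodes the beta chain specific to interleukin-3 in the mouse, stood at 89.0 CPM in BiDT and 135.8 CPM in Ctrl. Of 8 measured genes of the list of GM-CSF receptor chains and related growth factors 2 were higher, Csf3r and Il3ra, and 2 lower, Csf2rb2 and Csf1r, with a median log2 ratio of -0.12 against 0.05 over all genes tested, of which 12.8% were higher and 6.47% lower. Csf3r lay below 10% of the level in another class, and the part of free RNA in it was not tested. Of 10 transcription factor genes of conventional DC, 2 were higher and none lower, where 12.8% of all tested genes were higher and 6.47% lower. Zbtb46, a factor restricted to conventional DC among myeloid cells, stood at 82.7 CPM in BiDT and 50.3 CPM in Ctrl, and Zeb2 at 248 CPM and 147 CPM in that order. Batf3 and Irf8, which cDC1 cells need to develop, had log2 ratios of 0.34 each.

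Prostaglandin E2 is known to curb Xcl1 in NK cells of mouse tumours, and its synthesis and receptor genes were listed for that reason. In NK-like cells 1 of 7 measured genes, Ptgs1, was lower and none higher, where 5.07% of all tested genes were lower and 14.3% higher. Ptgs1 had 35 UMIs in BiDT and 26 in Ctrl there, below 10% of the level in another class, and the part of free RNA was not tested. In these cells the receptor genes Ptger2 and Ptger4 had log2 ratios of -0.11 and 0.02. In macrophage or monocyte-like cells 1 of 8 genes was lower among 10.2% of 14784 genes at least 1.5 times lower, 18.4% being higher (2723 higher and 1515 lower by total counts, 1982 and 2435 with TMM). That gene was Ptgs1, with 10.98 CPM in BiDT and 49.1 CPM in Ctrl, while the inducible synthase gene Ptgs2 stood at 1072 CPM and 1047 CPM in that order. Different clusters filled this class: M3 held 27.4% of it in BiDT and 0.390% in Ctrl, M8 0.731% and 11.6%, and M14 0.363% and 8.56% in that order. Ptgs1 was among the leading genes of M8, and the part of cluster make-up in its level was not tested.

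Likeness to other genes was measured as Pearson's r of log2(CPM + 1) over 22 points, 11 classes in each of the 2 libraries, which share their library and depth, among 15339 genes. Xcl1 was most like Gm12596, Eif2ak3, Eomes, Prss2 and Gzme (r from 0.876 to 0.847). Flt3l was most like Arhgef1, Jakmip1, Ablim1, Sla2 and Zap70 (0.953 to 0.948), all closer than any gene was to Xcl1. For Csf2 the nearest were Rab4a, Zfp790, Camk2n1, Ptpn13 and Epas1 (0.901 to 0.851). Xcr1 was most like Tlr11, Chsy3, Gm43914, Gpr141b and Gm3336 (0.947 to 0.934), and Flt3 most like Tspan33, Cst3, Adam23, Gprc5c and Timd4 (0.965 to 0.955).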

How the data were processed

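The authors deposited UMI counts for each gene in each barcode, not normalized. The submitters' processing notes name Cell Ranger 7.1.0 and GRCm39, and the labels' protocols name a 10x Genomics 3' kit. The barcodes hold 3 segments of 9 bases, which is not the form Cell Ranger writes, so that kit and counting step are uncertain. Which annotation release was used was not given in those sources.

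Kept cells had at least 300 genes, at least 500 UMIs and no more than 10% of UMIs from mitochondrial genes. Scrublet, run in scanpy 1.11.5, marked no cell in either library by its own thresholds. A score of 0.15 or more, set after seeing the scores, removed 2714 BiDT and 2192 Ctrl cells. Both libraries were clustered together (scikit-learn 1.9.0, igraph 0.11.9, 3000 variable genes, 30 components, 15 neighbours, Leiden resolution 1), without the 5 genes, interferon, mitochondrial, ribosomal and receptor segment genes. Clusters that scored best as T or NK cells were then clustered again. Those that scored best as DC, B, plasma or mast or basophil cells were also clustered again, as 1 separate set. Gamma delta T-like cells (D7) came from that second set. Clusters were named from marker lists, with at least 3 markers detected in 10% of cells and other lineages scoring under 0.75 of the best. The rule that lets leading genes decide within a lineage, which named D9 and D14, was set after seeing cluster tables. D14, named migratory DC though its cDC2 score was higher, held 24 BiDT and 14 Ctrl cells. The unnamed clusters held 1.98% of BiDT and 1.49% of Ctrl cells.

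UMIs were summed per class and library and given as CPM with exact Poisson intervals, and log2 ratios with conditional binomial intervals; shares have exact binomial (Clopper-Pearson) intervals. Detection was compared after thinning each cell to 1000 UMIs, a depth that every filtered cell reached. TMM factors came from edgeR 4.0.16. Ratios and intervals were tested on simulated Poisson counts with set fold changes. Such counts lack the uneven spread of UMIs over cells, so the intervals were not tested for the measured counts. Members and lists were chosen with earlier results of these data known. In each list the named genes are the 2 highest and 2 lowest log2 ratios in a class among genes with at least 50 UMIs, and others were chosen after their values were seen. Python 3.11.15, numpy 2.4.6, scipy 1.17.1 and pandas 2.3.3 were used.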

Additional observations from a re-analysis of the deposited data

Results flagged for a closer look

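Csf2 was the one of the 5 genes whose log2 ratios of BiDT over Ctrl pointed both ways between classes with at least 20 CPM in both libraries and an interval that excludes 0. It was higher in BiDT in CD4 T-like (0.20), gamma delta T-like (1.07) and stromal or tumour-like cells (0.70) and lower in CD8 T-like (-0.40) and NK-like cells (-0.70). The difference between classes was not tested. Directions in CD4 T-like, CD8 T-like and gamma delta T-like cells reversed under other settings. Leiden resolution 2 gave -0.029 in CD4 T-like and 0.096 in CD8 T-like cells, and the marker gate -0.59 in gamma delta T-like cells. Of 5 CD8 T-like clusters compared, none had an interval below 0 and 2 had one above 0. Few cells held most of the UMIs: the highest cell had 76 in BiDT and 108 in Ctrl among CD4 T-like cells, and 9 and 8 in that order among gamma delta T-like cells, whose sums were 30 UMIs in each library.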

How the results depend on the processing

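No paired analysis was possible because each group is 1 library. Over 59 alternatives of the 8 main ratios, 34 stayed within the counting interval, 24 moved and 1 reversed; the cause of these changes was not tested. The cell-by-cell marker gate gave Xcl1 log2 ratios of -1.43 in NK-like and -1.60 in CD8 T-like cells, a conventional DC-like share ratio of -1.17, and the reversal, Flt3 in conventional DC-like cells at -0.27; it also reversed Csf2 in gamma delta T-like cells (-0.59). Leiden resolution 2 gave -1.01 for Xcl1 in CD8 T-like and 0.29 for Xcr1 in cDC1-like cells and reversed Csf2 in CD4 T-like (-0.029) and CD8 T-like cells (0.096). With at most 5% mitochondrial UMIs Xcl1 stood at -0.95 in NK-like cells, -0.95 in CD8 T-like cells and 1.21 in all cells, and Csf2 in CD8 T-like cells reversed to 0.041. Xcl1 in all cells was 1.16 without doublet removal and 1.31 with at least 1500 UMIs per cell. Thinning to 1000 UMIs gave Xcl1 at -1.32 (NK-like), -1.77 (CD8 T-like) and 0.51 (all cells), Flt3l at 1.03 and Csf2 at 0.70 in all cells. TMM gave Xcl1 at -0.98 (NK-like) and 1.04 (all cells), Flt3l at 1.14 and Csf2 at 0.79. Of settings chosen after seeing the data, Malat1 at most 1% gave Xcl1 at -0.76 (NK-like) and 1.37 (all cells), Csf2 at 1.11 in all cells and -0.061 (reversed) in gamma delta T-like cells, and a DC-like share ratio of -1.71, and leaving out D9 gave Xcr1 at 0.60. Unthinned shares of cells with a UMI were 27.5% in BiDT and 45.8% in Ctrl for Xcl1 and 18.7% and 24.9% for Flt3l in NK-like cells, and 55.1% and 36.4% for Xcr1 in cDC1-like cells. Over 114 alternatives of the further log2 ratios, 86 stayed within the counting interval, 23 moved and 5 reversed. Counting genes with at least 10 UMIs, those at least 1.5 times higher numbered 6351 in all, 2986 in NK-like, 2060 in CD8 T-like, 4707 in macrophage or monocyte-like and 2519 in conventional DC-like cells, and the lower ones numbered 1091, 1033 and 1088 in NK-like, CD8 T-like and conventional DC-like cells. With TMM the lower ones were 2259 in all, 2435 in macrophage or monocyte-like and 1162 in conventional DC-like cells; in NK-like cells the split was 1263 higher and 857 lower with TMM, against 1671 and 594, and in macrophage or monocyte-like cells 1982 higher, against 2723 higher and 1515 lower. Values of small classes (in BiDT 107 cDC1-like, 89 gamma delta T-like and 19 plasmacytoid DC-like cells) have wide intervals.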
